A study of Mus musculus with 5 samples.

Results

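The genes described here are the MiT/TFE transcription factors Tfeb, Tfe3 and Mitf, the folliculin gene Flcn with its partners Fnip1 and Fnip2, the Rag GTPase genes Rraga, Rragc and Rragd, and Gpnmb. They were found by symbol, 10 of the 52459 rows of the deposited expression table. A population with high autophagy signal, AThi (2 libraries), and one with low signal, ATlo (3 libraries), were both sorted from dissociated Matrigel organoids of mouse pancreatic cancer cells by the ratio of GFP to RFP fluorescence. Cells of both populations share the HY15549 line background, the C57BL/6 strain background and an autophagy flux reporter, GFP-LC3-RFP, and no drug or other genetic change is named for either. All libraries therefore come from 1 line, and the p-values measure the spread between libraries, which may be technical. The comparison asks how transcript levels differ between cells of high and low autophagy flux within 1 tumour line.

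MiT/TFE factors are basic helix-loop-helix leucine zipper proteins that bind E-box sequences, among them the CLEAR element of lysosomal and autophagy genes. On a nutrient-replete lysosome, heterodimers of RagA or RagB with RagC or RagD bring these factors to the kinase mTORC1, whose phosphorylation holds them in the cytoplasm. Folliculin, in complex with FNIP1 or FNIP2, is the GTPase-activating protein for RagC and RagD that this step requires. Flcn, the FNIP genes and Rragd are themselves known targets of MiT/TFE factors, which closes a feedback loop, and in pancreatic ductal cancer these factors are known for driving lysosomal genes.

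Levels are given as FPKM, by definition read fragments divided by transcript length in kilobases and by library depth. The gene lengths used for the table are not given, so comparing levels between genes assumes that these lengths are adequate. Of the 10 genes, 7 averaged 1 FPKM or more across all 5 libraries and were tested, and Mitf, Rragd and Gpnmb did not. The order of the 7 by mean level in AThi was Rraga, Rragc, Flcn, Fnip1, Tfe3, Fnip2 and Tfeb, where the libraries of Tfe3 and Fnip2 overlapped and those of the other neighbours did not. In ATlo it was Rraga, Rragc, Flcn, Tfe3, Fnip1, Fnip2 and Tfeb, and the libraries of each neighbouring pair from Tfe3 to Tfeb overlapped. Fnip1 thus stood above Tfe3 in both AThi libraries, while in ATlo the libraries of these genes overlapped.

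**Figure D1:**
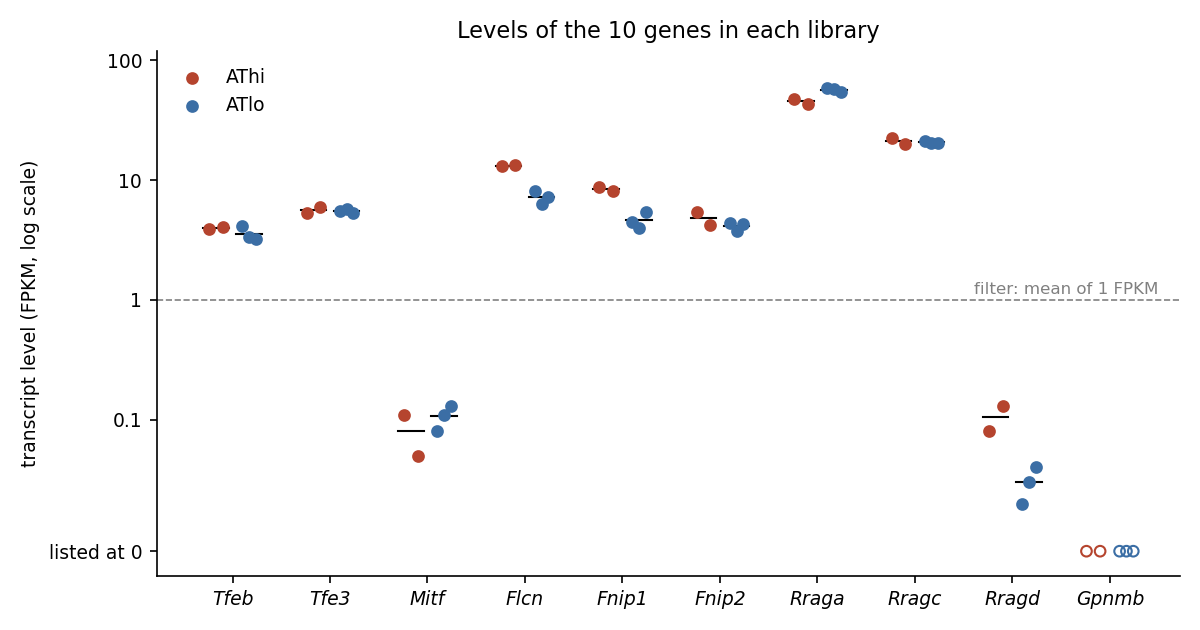
Transcript level in FPKM on a log axis for the 10 genes, with 1 point per library (AThi red, ATlo blue). Black lines mark the group means, and open points at the lowest tick stand for values listed at 0. The AThi points of Flcn and Fnip1 lie above all ATlo points, those of Rraga lie below them, and Mitf, Rragd and Gpnmb stay under the filter of 1 FPKM.

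Across the table, 5884 of 11397 genes tested, or 51.6%, passed a Benjamini-Hochberg adjusted p of 0.05 in limma. Of all genes tested, 22.2% passed as higher and 29.4% as lower in AThi. The ranges of AThi and ATlo were separate in 70.3% of them. Among the 7 tested genes described here, there were 2 rises, 1 fall and 4 genes that missed the threshold, and the ranges were separate in 3. Their median log2 fold change was 0.15, beside -0.03 for all genes tested. With 7 genes such counts lie near or under the shares over the whole table, and what follows rests on the values of single genes. In bulk libraries, fewer expressing cells and less RNA per cell cannot be told apart.

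The folliculin genes held both rises. Flcn, which encodes folliculin, had 12.99 and 13.3 FPKM in the AThi libraries, against 8.09, 6.35 and 7.19 FPKM in the ATlo libraries. Both AThi values lay above every ATlo value, and they differed little from each other. The AThi mean was 13.1 ± 0.22 FPKM (SD, n = 2) and the ATlo mean 7.21 ± 0.87 FPKM (SD, n = 3). The fold change was 1.78 (95% interval 1.51 to 2.1), or 0.83 ± 0.10 (SE) as a log2 fold change of FPKM + 0.5, with an adjusted p of 0.000728 in limma. Flcn stood at the 96.0th percentile of log2 fold changes over all genes tested.

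Fnip1, the gene of folliculin-interacting protein 1, which is also a substrate of the energy-sensing kinase AMPK, moved by a like amount. It had 8.69 and 8.15 FPKM in AThi, against 4.45, 3.95 and 5.45 FPKM in ATlo. The groups did not overlap, and the ATlo libraries spread more widely than those of AThi. The fold change was 1.76 (95% interval 1.43 to 2.15), or 0.81 ± 0.12 (SE) on the log2 scale, with an adjusted p of 0.00191 in limma. Among all genes called higher in AThi, 82.8% had a smaller rise than Flcn and 81.5% a smaller rise than Fnip1.

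Fnip2, which encodes the second folliculin partner, did not pass. It had 5.44 and 4.24 FPKM in AThi, against 4.42, 3.79 and 4.28 FPKM in ATlo. AThi replicate 2 lay inside the ATlo range and AThi replicate 1 above it. The log2 fold change was 0.19 ± 0.12 (SE), with a 95% interval of -0.09 to 0.47 and an adjusted p of 0.219 in limma, an interval that does not reach the estimates of Flcn and Fnip1.

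Within a library, the ratio of Fnip1 to Fnip2 in FPKM was 1.6 and 1.92 in AThi, against 1.01, 1.04 and 1.27 in ATlo. Fnip1 made up 61.5% and 65.8% of the summed FPKM of both FNIP genes in AThi, against 50.2%, 51.0% and 56.0% in ATlo. The FNIP pair was thus close to even in 2 ATlo libraries and tilted to Fnip1 in both AThi libraries. The difference in log2 ratio was 0.62, where 0.5 was added to each FPKM before the ratio was taken, here and below. The exact two-sided permutation p was 0.2. The test doubles the smaller tail, and 0.2 is the smallest p it can give with 2 against 3 libraries.

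Flcn over Fnip1 was 1.49 and 1.63 in AThi, against 1.82, 1.61 and 1.32 in ATlo, so the groups overlapped. The difference in log2 ratio was 0.02 (exact permutation p = 1.0). Flcn over Fnip2 was 2.39 and 3.14 in AThi, against 1.83, 1.68 and 1.68 in ATlo, without overlap and with an exact permutation p of 0.2. In all, 6 ratios between related genes were compared, and the smallest Benjamini-Hochberg adjusted p over them was 0.4.

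**Figure D2:**
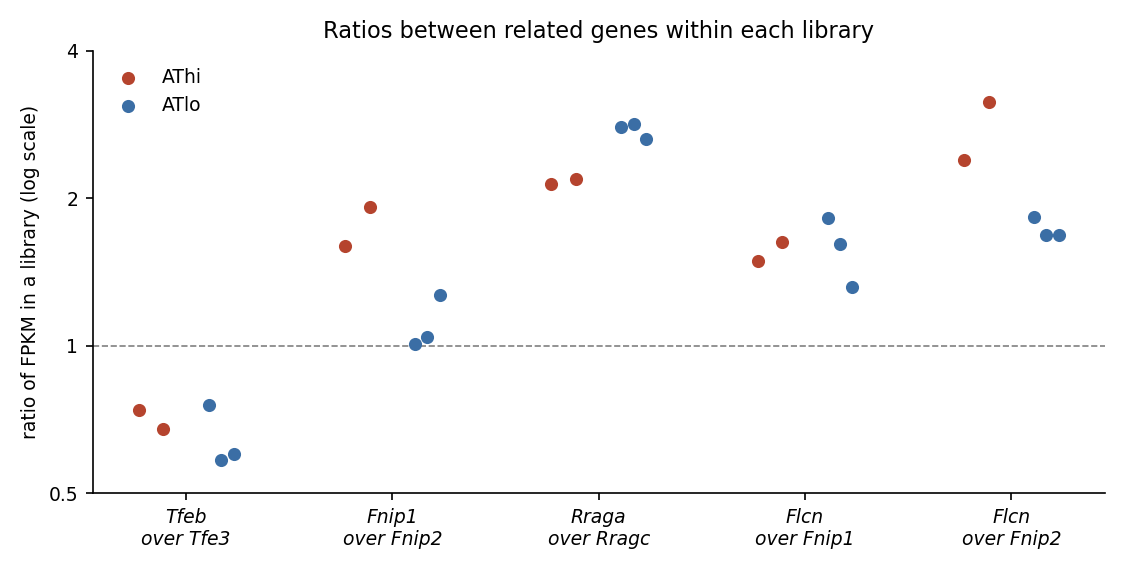
Ratio of FPKM between related genes within a library, on a log axis, with 1 point per library (AThi red, ATlo blue) and a dashed line at 1. The AThi points of Fnip1 over Fnip2 and of Flcn over Fnip2 lie above the ATlo points, those of Rraga over Rragc lie below, and the groups overlap for Tfeb over Tfe3 and Flcn over Fnip1.

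Other measures moved with the same groups as Flcn and Fnip1. All 10 genes of an immediate-early list, which respond to cell handling, rose in AThi, with summed levels of 3508 and 5480 FPKM in AThi, against 1102 to 1830 FPKM in ATlo. All 5 genes of a proliferation list fell, with summed levels of 13.6 and 14.2 FPKM in AThi, against 125 to 182 FPKM in ATlo. Mitochondrially encoded genes took up 10.0% and 7.51% of all FPKM in AThi, against 5.98%, 5.61% and 5.53% in ATlo. Their part in the rises of Flcn and Fnip1 was not tested.

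Flcn and Fnip1 both lie on chromosome 11 of GRCm38, Flcn at 59791408 to 59810016 on the minus strand and Fnip1 at 54438199 to 54518235 on the plus strand. Fnip2 lies on chromosome 3 (79455974 to 79567796, minus strand). Since Flcn and Fnip1 rose together, the 150 bases before their RefSeq transcription starts (GRCm38.p6) are shown, with Rragc, which did not pass, for comparison. Capitals mark the E-box CACGTG, the core of the CLEAR element.
Flcn, chr11:59810040-59810189, minus strand: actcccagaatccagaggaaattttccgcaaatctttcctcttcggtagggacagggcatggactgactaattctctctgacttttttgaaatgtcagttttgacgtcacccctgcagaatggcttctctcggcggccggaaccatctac
Fnip1, chr11:54438029-54438178, plus strand: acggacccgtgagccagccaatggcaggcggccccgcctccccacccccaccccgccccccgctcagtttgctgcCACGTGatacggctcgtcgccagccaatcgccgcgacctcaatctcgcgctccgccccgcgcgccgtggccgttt
Rragc, chr4:123917283-123917432, plus strand: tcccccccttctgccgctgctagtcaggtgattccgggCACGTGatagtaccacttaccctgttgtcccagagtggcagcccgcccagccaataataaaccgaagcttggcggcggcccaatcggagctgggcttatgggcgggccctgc
The Fnip1 and Rragc windows each hold 1 CACGTG, whose first base lies 75 and 112 bases before the start, and the Flcn window holds none. The GC content of these windows was 48.7% for Flcn, 73.3% for Fnip1 and 62.7% for Rragc.

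All 10 genes had a RefSeq promoter, 15 promoters in all, each of 250 bases before and 50 after a start. CACGTG, which reads the same on both strands, was found in 2 of the 15, those shown above, and in 7.15% of all 32851 promoters of that length. The longer form TCACGTG, searched with its reverse complement CACGTGA and always overlapping CACGTG, was found in the same 2 and in 3.77% of all. The M-box core TCATGTG, searched with CACATGA, was found in none of the 15 and in 3.77% of all. The Rragb promoter, which belongs to a related gene outside the 10, held 3 copies of CACGTG. Rragb was near the filter, at 0.93 and 1.37 FPKM in AThi, against 1.09, 1.17 and 1.5 FPKM in ATlo, and did not pass. Any part of the E-box in the rises was not tested. A match is a string of letters, not a bound site.

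Among the transcription factors, no gene passed the test. Tfeb had 3.91 and 4.06 FPKM in AThi, against 4.17, 3.32 and 3.22 FPKM in ATlo. Both AThi values lay within the ATlo range, since ATlo replicate 1 was the highest of the 5 libraries. The 95% interval of the log2 fold change ran from -0.13 to 0.42, a fold between 0.915 and 1.34, with an adjusted p of 0.322 in limma.

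Tfe3 had 5.3 and 6.01 FPKM in AThi, against 5.52, 5.69 and 5.35 FPKM in ATlo. The AThi libraries were the lowest and the highest of all 5. The 95% interval of the fold ran from 0.895 to 1.16, with an adjusted p of 0.771 in limma. Tfe3 was the more abundant of the pair in every library, with Tfeb over Tfe3 at 0.738 and 0.676 in AThi, against 0.755, 0.583 and 0.602 in ATlo.

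Mitf, the factor of the melanocyte lineage, was near the floor of detection at 0.11 and 0.05 FPKM in AThi, against 0.08, 0.11 and 0.13 FPKM in ATlo. At the depth implied by the FPKM steps and the annotated exon length, these values stand for about 19 and 14 reads in AThi, against 21, 25 and 32 in ATlo. The groups overlapped. The related gene Tfec, outside the 10, was listed at 0 in 4 libraries and at 0.02 FPKM in AThi replicate 2. Summed over Tfeb, Tfe3 and Mitf, the level was 9.32 and 10.12 FPKM in AThi, against 9.77, 9.12 and 8.7 FPKM in ATlo, again with overlap. Tfeb lies on chromosome 17 (47737030 to 47792419), Tfe3 on chromosome X (7762560 to 7775202) and Mitf on chromosome 6 (97807052 to 98021349), all on the plus strand. FPKM per gene do not separate isoforms, and these 3 genes have several annotated starts.

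Gpnmb, which encodes a transmembrane glycoprotein and is a widely used readout of MiT/TFE activity in melanocytes, macrophages and folliculin-deficient kidney tumours, was listed at 0 FPKM in all 5 libraries. In a gene of its exon length, 3 reads would correspond to 0.0102 to 0.0167 FPKM in these libraries, counting error only. Gpnmb lies on chromosome 6 (49036546 to 49070929, plus strand).

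The Rag GTPases held the fall. Rraga encodes RagA, the partner that GATOR1 acts on, and was the most abundant of the 10 genes, at the 90.9th percentile of tested genes in AThi and the 92.5th in ATlo. It had 47.89 and 43.55 FPKM in AThi, against 59.17, 57.71 and 53.85 FPKM in ATlo. Both AThi values lay below all ATlo values. The log2 fold change was -0.31 ± 0.07 (SE), a fold of 0.805 with a 95% interval of 0.714 to 0.908 and an adjusted p of 0.0109 in limma. Of all genes called lower in AThi, 20.3% had a smaller fall. Without AThi replicate 2 the log2 fold change was -0.25 and the adjusted p 0.0698.

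Rragc, the gene of RagC, whose GDP-bound form holds TFEB and TFE3 at the lysosome, had 22.33 and 19.86 FPKM in AThi, against 21.12, 20.36 and 20.41 FPKM in ATlo. The ATlo libraries lay between the AThi libraries. The 95% interval of the fold ran from 0.909 to 1.15, with an adjusted p of 0.747 in limma. Rragc shares 264 exon bases with the antisense gene 4930535I16Rik, which was listed at no more than 0.11 FPKM in any library.

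Rragd encodes RagD, a paralog of RagC and in other cells a strongly MiT/TFE-responsive gene. It had 0.08 and 0.13 FPKM in AThi, against 0.02, 0.03 and 0.04 FPKM in ATlo. The groups did not overlap, but the values stand for only about 11 and 30 reads in AThi, against 4, 6 and 8 in ATlo. The ratio of the means was 3.5. In a fit with no filter on low values the log2 fold change of FPKM + 0.5, which understates the change of so low a gene, was 0.19 ± 0.05 (SE), with an adjusted p of 0.0547 in limma. Without a pseudocount, Rragd over Rragc was 0.00358 and 0.00655 in AThi, against 0.000947, 0.00147 and 0.00196 in ATlo, and these ranges were separate. Rragc made up 99.3% or more of the summed FPKM of Rragc and Rragd in every library.

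Since each Rag dimer holds 1 protein of each class, the ratio of Rraga to Rragc was also taken. It was 2.14 and 2.19 in AThi, against 2.8, 2.83 and 2.64 in ATlo. The AThi libraries were close together and below all ATlo libraries. The difference in log2 ratio was -0.34 (exact permutation p = 0.2, the smallest this test can give). Rragb, which encodes RagB and is outside the 10, contributed little, with Rraga making up 97.0% to 98.2% of their sum. Rraga, Rragc and Rragd lie on the plus strand of chromosome 4, at 86575668 to 86577285, 123917446 to 123936997 and 32983037 to 33022180.

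**Figure D3:**
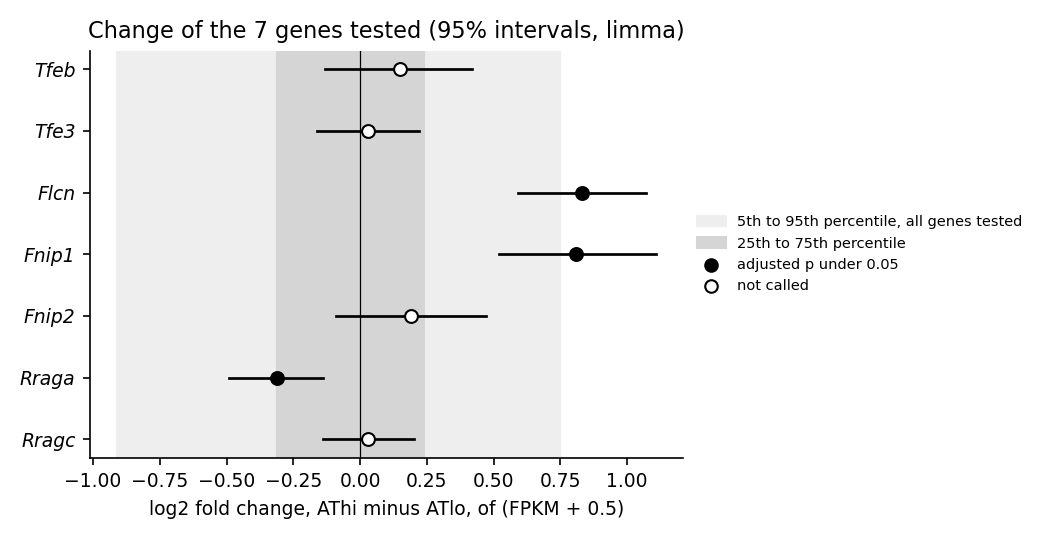
Log2 fold change, AThi minus ATlo, of FPKM + 0.5 for the 7 genes tested, with 95% intervals from limma, filled points for an adjusted p under 0.05, and grey bands for the spread over all 11397 genes tested. Flcn and Fnip1 lie just beyond the 95th percentile of all genes (0.75), Rraga lies at about the 25th (-0.31), and the intervals of Tfeb, Tfe3, Fnip2 and Rragc include 0.

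The genes that act on the Rags were read from lists of complexes. Of 24 tested genes, 3 were called higher, 5 lower and 16 neither way, and their median log2 fold change was -0.08. Over all genes tested, 22.2% were called higher and 29.4% lower, with a median of -0.03. Both counts lie under those shares, and what follows gives values of single genes. All 3 rises were in the nutrient sensors. Sesn3, the gene of a sestrin, had 8.03 and 6.97 FPKM in AThi, against 3.71, 3.72 and 3.86 FPKM in ATlo, a log2 fold change of 0.91 ± 0.08 (SE) with an adjusted p of 0.000259 in limma. Castor2, listed under its older symbol Gatsl2 and related to the arginine sensor CASTOR1, rose by 0.78 ± 0.13 (SE), and the leucine sensor gene Sesn2 by 0.40 ± 0.10 (SE). Sesn1, Castor1 (listed as Gatsl3) and Bmt2, the gene of the S-adenosylmethionine sensor SAMTOR, did not pass, at -0.02, 0.06 and 0.14. The call of Sesn2 was lost without AThi replicate 2 and without ATlo replicate 2, where the other two rises kept theirs.

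Ragulator, the LAMTOR complex that anchors the Rags to the lysosome, moved in the direction of Rraga in the subunits that passed. Lamtor1, Lamtor2 and Lamtor3 changed by -0.23 ± 0.07, -0.20 ± 0.07 and -0.30 ± 0.07 (SE), and Lamtor4 and Lamtor5, at -0.13 and -0.07, did not pass. Their summed level was 122 and 125 FPKM in AThi, against 134 to 144 FPKM in ATlo. None of these 3 calls held with each library left out in turn, and without AThi replicate 2 none of them passed.

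GATOR1 is the GTPase-activating complex for RagA and RagB, and GATOR2 acts upstream of it. In GATOR1, Nprl3 fell by 0.39 ± 0.07 (SE), and Nprl2 and Depdc5 did not pass, at -0.05 and -0.12. In GATOR2, Sec13, also a coat protein of vesicles leaving the endoplasmic reticulum and a nuclear pore subunit, had 20.44 and 23.26 FPKM in AThi, against 37.2, 39.14 and 39.91 FPKM in ATlo, a log2 fold change of -0.81 ± 0.08 (SE) with an adjusted p of 0.00026 in limma. Wdr24, Wdr59, Mios and Seh1l of GATOR2 did not pass, at -0.07, -0.10, 0.24 and 0.14. The KICSTOR genes Kptn, Itfg2 and BC048403, whose complex brings GATOR1 to lysosomes, did not pass either, at -0.18, -0.14 and 0.10. The lysosomal amino acid transporter gene Slc38a9 was under the filter, at 0.86 and 0.96 FPKM in AThi, against 0.72, 0.76 and 0.83 FPKM in ATlo.

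A list of 26 genes held the kinases, phosphatases and binding partners that control MiT/TFE factors or folliculin. Of its 25 tested genes, 5 were called higher, 11 lower and 9 neither way, and their median log2 fold change was -0.17. Over all genes tested, 22.2% were called higher and 29.4% lower, with a median of -0.03. The 14-3-3 proteins, which hold phosphorylated TFEB in the cytoplasm, supplied 5 of the falls, with Ywhah at -0.71 ± 0.06 and Ywhae at -0.57 ± 0.08 (SE), and Ywhaq and Sfn, at -0.10 and -0.09, did not pass. Xpo1, the exportin gene, had 18.61 and 15.5 FPKM in AThi, against 24.97, 27.37 and 35.49 FPKM in ATlo, a log2 fold change of -0.75 ± 0.15 (SE) whose call was lost without AThi replicate 2, at an adjusted p of 0.0511 in limma. The calls of Rptor, Mlst8, Ywhab, Stub1 and Gabarap did not hold either with each library left out in turn. Map4k3, a kinase gene of amino acid signalling, rose by 0.73 ± 0.07 (SE). The calcineurin genes Ppp3ca, Ppp3cb and Ppp3r1, whose product dephosphorylates TFEB, did not pass, at 0.23, -0.26 and 0.07.

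Reported targets of TFEB through the CLEAR element, 41 genes without the 10, were counted for comparison. Of 39 tested, 23 were called higher, 3 lower and 13 neither way, beside 22.2% higher and 29.4% lower over all genes tested. Their median log2 fold change was 0.37, beside -0.03 for all genes tested. Their largest called changes were in the cathepsin gene Ctsf, at 1.90 ± 0.09, the hexosaminidase gene Hexa, at 0.93 ± 0.12, the cystine exporter gene Ctns, at 0.84 ± 0.08, and the glucosidase gene Gaa, at 0.83 ± 0.10 (SE). Flcn and Fnip1 moved about as much as the last pair. The list was drawn up with earlier results on lysosomal genes of these libraries known, so its direction is not independent evidence.

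**Figure D4:**
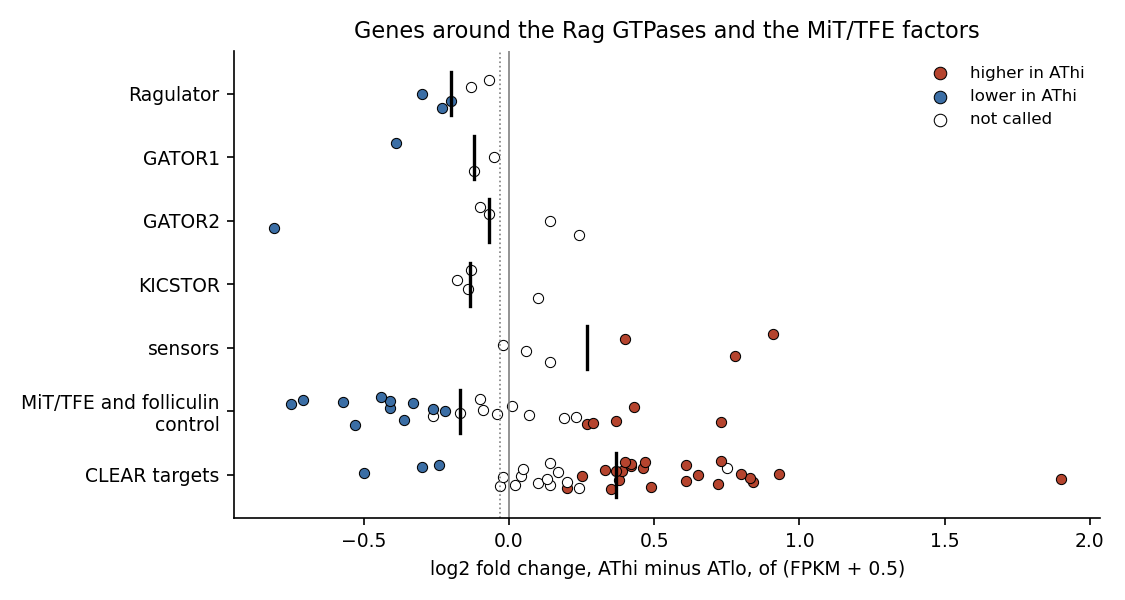
Log2 fold change, AThi minus ATlo, of FPKM + 0.5 for the tested genes of each list, with red points called higher and blue points called lower in AThi, open points not called, black bars at list medians and a dotted line at the median of all genes (-0.03). The called points of Ragulator, GATOR1 and GATOR2 lie left of 0, those of the sensors lie right of it, and the CLEAR list has 23 called points on the right and 3 on the left.

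The sorted cells carried epithelial transcripts, with summed levels of 7 markers at 3548 and 4206 FPKM in AThi, against 3814 to 4491 FPKM in ATlo, nearly all of it Krt8, Krt18, Krt19 and Cdh1. Other markers of that list were low, with Epcam at 1.51 to 3.57 FPKM over all libraries and Cldn4 at 0 in AThi and at 0.15 FPKM or less in ATlo. Krt7, at 71.21 and 83.48 FPKM in AThi, against 124.99, 130.96 and 112.97 FPKM in ATlo, was called lower, at -0.67 ± 0.10 (SE) on the log2 scale (limma, adjusted p = 0.00151). Melanocyte markers, 6 genes summing to 0.22 and 0.67 FPKM in AThi, against 0.18 to 0.33 FPKM in ATlo, were all under the filter, with Tyr and Tyrp1 at 0. Macrophage and osteoclast markers, 8 genes, summed to 30.5 and 33.9 FPKM in AThi, against 19.9 to 23.5 FPKM in ATlo. Nearly all of that sum was Cd68 and Acp5, which encode lysosomal proteins and were the 2 of the 8 above the filter. Cd68 was called higher, at 1.27 ± 0.19 (SE) on the log2 scale (limma, adjusted p = 0.00178), and Acp5, at 0.24, did not pass. Ptprc, Csf1r, Itgam and Lyz2 were at 0.06 FPKM or less and Adgre1 at 0. Fibroblast and endothelial markers summed to at most 0.17 and 0.08 FPKM in any library, with Col1a2, Dcn and Kdr at 0. Implied depths were 27.6 to 45.0 M reads per library, where M stands for 1000000.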

How the data were processed

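The authors deposited 1 table of FPKM with a column for each of the 5 libraries, rounded to 2 decimals and not pooled. Per the labels' protocols, libraries came from a stranded mRNA kit. Tools named in the submitters' processing notes, with no version or role, are STAR, featureCounts, DESeq2 and bcl2fastq, and the named builds are GRCm38 and mm10. No source used here gives the annotation, the strand setting or the FPKM formula. FPKM are relative within a library.

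Genes averaging 1 FPKM or more were tested two-sided on log2(FPKM + 0.5) with limma 3.58.1 in R 4.3.3 (eBayes with trend), with group as the single term, with Benjamini-Hochberg adjustment over 11397 genes and a threshold of 0.05. With 5 libraries, 3 residual degrees of freedom remained. The code of the fit was run on simulated data with an equal spread for all genes and few changed genes. That setting differs from these data, so it does not test the calls reported here. Intervals are 95%. Ratios used an exact permutation test over libraries (SciPy 1.17.1). No set test was run. From each list, the 4 largest called changes, or any gene of a list of up to 6, were to be named, and others named were chosen after their values were seen. A listed gene that is counted but not named is not reported here. Members and lists were chosen with earlier results of these data known.

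Depth was read from single-exon genes of up to 200 bases, where the product of FPKM and length came in whole steps, each worth 1 read (tolerance 0.1 of a step, 100% of 285 to 394 values). Positions and exon lengths came from GENCODE M21 (GRCm38), 1-based, and promoters from RefSeq (GRCm38.p6). A BLAST 2.17.0 search of annotated transcripts (95% identity over 200 bases) found for the 10 genes a single match, the antisense overlap of Rragc with 4930535I16Rik. Equal replicate numbers are not said to pair libraries. Alternatives covered the pseudocount, filter, scaling, moderation, a replicate block and each library left out.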

Additional observations from a re-analysis of the deposited data

How the results depend on the processing

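Flcn and Fnip1 were called higher in all 14 alternative fits, with log2 fold changes of 0.75 to 0.91 and 0.72 to 0.93. Rraga was called lower in 13 of 14 (-0.38 to -0.25), the exception being the fit without AThi replicate 2. With each library left out in turn, the count of the 10 genes called higher was 2 each time and the count called lower 0 to 1. Tfeb, Tfe3, Fnip2 and Rragc passed in none of their alternatives, with smallest adjusted p-values of 0.0525, 0.351, 0.0623 and 0.273. With a library left out, the estimates of Tfe3 and Rragc ran from -0.05 to 0.11 for each gene, turning to -0.05 without AThi replicate 2 for Tfe3 and without AThi replicate 1 for Rragc, neither of them called. The estimate of Tfeb was 0.25 without ATlo replicate 1, beside 0.15 as reported. That of Fnip2 was 0.35 without AThi replicate 2 and 0.03 without AThi replicate 1, beside 0.19 as reported. Leaving out an AThi library leaves 1, which is assumed to vary like the ATlo libraries.

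Among genes that act on the Rags, the rises numbered 3, against 1 with a minimum mean of 5 FPKM and 6 with the replicate block, and 2 to 5 with a library left out. The falls numbered 5, against 3 with values centred on the median and 2 to 4 with a library left out. Falls among CLEAR targets numbered 3, against 1 with no filter, 1 with median centring and 1 to 2 with a library left out. Fewer genes are tested under the stricter filter, and the cause of the other changes was not tested. The difference in log2 ratio of Rragd to Rragc, both with 0.5 FPKM added, was 0.16, against 0.62 with a pseudocount of 0.1 and 0.45 in TPM, and 0.02 to 0.30 with a library left out, so at these levels it depends on the pseudocount. For Flcn over Fnip2 it was 0.64, and 0.46 to 0.82 with a library left out.

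The sample titles give AThi and ATlo libraries of the same replicate number, for replicates 1 and 2, a code with the same leading digits, and ATlo replicate 3 one of its own. No label says what the code means, so the numbers were not taken to pair libraries, and whether they mark a shared run or day was not tested. Deviations from the group mean correlated at r = 0.2 between the libraries numbered 1 and at r = 0.297 between those numbered 2, over 11397 genes. With 2 AThi libraries these deviations are mirror images, so the crossed pairs had to give -0.2 and -0.297. With ATlo replicate 3, AThi replicates 1 and 2 gave 0.06 and -0.06. For this reason the correlations cannot decide whether libraries pair. The replicate block left the counts of the 10 genes at 2 higher and 1 lower, while the rises among genes that act on the Rags numbered 6 with it and 3 without. The block fit left 1 residual degree of freedom, against 3 as reported. ATlo replicate 3, alone in its block, did not inform the group difference there. Over all genes, 51.1% of calls were higher in AThi with median centring and 43.0% as reported. Depth limits Mitf and Rragd, whose values stand for about 4 to 32 reads per library, and Gpnmb was listed at 0 in every library.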
